A study of Mus musculus with 6 samples.

Results

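The genes of MHC class I antigen presentation were chosen by their symbols, as 10 of the 45777 genes listed in the deposited expression matrix. They were the heavy chains H2-K1 and H2-D1, their partner chain B2m, the peptide transporter subunits Tap1 and Tap2, the loading factor Tapbp, the immunoproteasome subunits Psmb8, Psmb9 and Psmb10, and the transcriptional activator Nlrc5. The rule is a list of symbols and holds no threshold on a measured value, but the list was drawn up with earlier results of these data known. All 10 passed the filter on low counts and were among the 17210 genes tested.

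B16F10 cells, a melanoma line derived from C57BL/6 mice, formed tumors at 2 sites, the hind footpad and the flank skin, and total RNA of 3 tumors from each site was sequenced. Every host in both groups is labelled Foxn1-/-, a genotype without a normal thymus and therefore with few mature T cells, at an age of 8 weeks. The labels say that RNA was extracted from removed tumors, and the study's methods say that tumor cells were isolated, without naming a way of separating them from host cells. No treatment is named in the labels, and no strain background is given for the hosts, so the MHC haplotype of the host cells in these tumors is not known here. The study's text counts the replicates as mice and describes implanting both sites at once, whereas the labels do not say which footpad and flank tumors shared a mouse. The p-values below, from fits without pairing, measure the spread among the 3 tumors of each site. The design asks how the tumor transcriptome differs between the footpad, which carries the weight of the animal, and the flank.

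Almost every nucleated cell displays peptides of its own proteins on class I molecules, which CD8+ T cells inspect. The proteasome cuts the proteins, the transporter of Tap1 and Tap2 carries the peptides into the endoplasmic reticulum, tapasin helps to load them on a heavy chain paired with beta-2-microglobulin, and the complex moves to the cell surface. Interferons raise nearly all genes of the pathway, and melanoma cells such as B16F10 are known for low surface class I that interferon-gamma restores. Heavy chains also engage receptors of natural killer cells, which need no thymus.

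Between 46529649 and 66364366 reads were counted on genes in each tumor. Levels are given in CPM, the read count relative to the library total after scaling for composition, and 3 counts corresponded to between 0.0438 and 0.0673 CPM. Differences are log2 fold changes of footpad over flank with their standard error (SE), and a gene was called when its adjusted p from edgeR's quasi-likelihood test was under 0.05 and its fold change was 2 or more. The 7 melanoma markers were all tested and summed to 9802, 17943 and 12560 CPM in footpad tumors 1, 2 and 3 and to 24942, 14350 and 16420 CPM in flank tumors 1, 2 and 3. Footpad 2 held the most keratinocyte and skeletal muscle RNA, with sums of 419 and 398 CPM, against at most 20.5 and 47.8 CPM in the other tumors.

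H2-K1 was the 1 member called, and it was lower in the footpad tumors. H2-D1, the other classical heavy chain, did not pass the test, and neither did B2m or any gene of transport, loading or peptide cutting. Stretches of the promoters of the 3 surface components are shown because they hold the elements by which interferon and NF-kappaB are known to act on class I genes. The sequences are from RefSeq (GRCm38.p6), 5′ to 3′ on the strand of each gene. H2-K1 is shown at chr17:34000334-34000466 on the minus strand, H2-D1 at chr17:35262915-35263057 on the plus strand and B2m at chr2:122147540-122147650 on the plus strand. Capitals mark, in order along H2-K1 and H2-D1, the NF-kappaB consensus, the interferon element TTTCACTT, the cyclic AMP response element core TGACG, and the box CCAAT, first on the opposite strand and then on the strand shown. In B2m they mark the interferon element core GAAANNGAAA, the NF-kappaB consensus, the same response element and the box on the opposite strand.
H2-K1: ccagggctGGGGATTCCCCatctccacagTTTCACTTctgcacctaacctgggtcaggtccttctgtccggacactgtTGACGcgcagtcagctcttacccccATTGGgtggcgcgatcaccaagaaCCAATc
H2-D1: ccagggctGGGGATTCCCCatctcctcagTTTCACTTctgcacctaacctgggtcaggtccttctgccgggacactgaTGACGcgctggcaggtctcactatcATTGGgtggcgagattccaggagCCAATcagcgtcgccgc
B2m: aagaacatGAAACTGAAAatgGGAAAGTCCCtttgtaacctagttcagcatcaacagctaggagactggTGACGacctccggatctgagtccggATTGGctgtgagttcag
The H2-K1 stretch ends at position -1 of an annotated start site, and its last bases belong to a transcript that begins slightly farther upstream. The RefSeq span of the H2-K1 gene reaches farther still, to 34000619, so the whole stretch lies inside that span. The H2-D1 stretch runs from -179 to -37 and the B2m stretch from -147 to -37.

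The H2-K1 and H2-D1 stretches were alike, with 117 of 132 aligned bases identical (88.6%), and all marked elements stood in the same order in both. Promoter windows of 250 bases before to 50 after the start were on hand for 8 of the 10 members, all but Tap2 and Nlrc5. Searched on both strands, the NF-kappaB consensus, which on the plus strand of H2-K1 and H2-D1 also matches at an overlapping position, was in 3 of these 8 and in 8.46% of 32851 promoter windows. TTTCACTT was in 2 of the 8, H2-K1 and H2-D1, and in 1.6% of all windows. The interferon element core GAAANNGAAA was in 1, B2m, against 3.44% of all. TGACG was in 5 of the 8 against 20.8%, and CCAAT in 6 against 37.4%. The windows of Psmb9 and Tap1 overlap, and their TGACG and CCAAT matches are the same bases counted for both genes. These matches describe letters in the windows and are not evidence of binding in these tumors.

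H2-K1 (Entrez Gene 14972, chr17:33996012-34000619), which encodes a classical heavy chain, measured 50.3, 31.0 and 48.4 CPM in footpad tumors 1, 2 and 3. In flank tumors 1, 2 and 3 it measured 146, 112 and 69.6 CPM. All footpad tumors were below all flank tumors, and the lowest flank tumor stood closer to the footpad group than to the highest flank tumor. The mean was 43.2 ± 10.7 CPM (SD, n = 3) in the footpad and 109 ± 38.5 CPM (SD, n = 3) in the flank, a 2.53-fold lower level in the footpad (log2 fold change -1.34, SE 0.30, edgeR adjusted p = 0.0491). The call was close to its threshold. It was lost when any 1 of the 6 tumors was left out, with adjusted p of 0.136, 0.0724 and 0.142 without footpad tumors 1, 2 and 3, and of 0.0880, 0.0955 and 0.0703 without flank tumors 1, 2 and 3, while the log2 fold change lay between -1.58 and -1.08. DESeq2 gave an adjusted p of 0.000284 for the same difference, and scaling by upper quartiles gave 0.0565 in edgeR. In bulk RNA, fewer cells of a type and less RNA per cell cannot be told apart.

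H2-D1 (chr17:35263094-35267497), the other classical heavy chain, measured 142, 106 and 156 CPM in the footpad tumors and 148, 187 and 99.7 CPM in the flank tumors. The groups overlapped fully: the highest and the lowest tumor were both from the flank. Its log2 fold change was -0.10 (SE 0.25, edgeR adjusted p = 0.829), and it turned positive without footpad 2 or without flank 2.

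B2m (chr2:122147687-122153082) encodes beta-2-microglobulin, the light chain with which classical heavy chains normally pair before they reach the surface. It measured 193, 138 and 213 CPM in the footpad tumors and 324, 280 and 181 CPM in the flank tumors. Flank tumors 1 and 2 were above the whole footpad group and flank 3 was within it. The log2 fold change was -0.53 (SE 0.25, edgeR adjusted p = 0.235).

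Ratios within a tumor set the surface components against each other. The ratio of H2-K1 to H2-D1 in FPKM, which accounts for transcript length, was 0.348, 0.303 and 0.321 in the footpad tumors and 1.02, 0.619 and 0.727 in the flank tumors. H2-K1 was level with H2-D1 in flank 1 and below it everywhere else, and the footpad ratios were tightly grouped. The ratio of H2-K1 to B2m was 0.127, 0.115 and 0.116 in the footpad and 0.231, 0.204 and 0.198 in the flank, again without overlap. The ratio of H2-D1 to B2m went the other way, at 0.366, 0.379 and 0.363 in the footpad and 0.226, 0.330 and 0.272 in the flank. These pairs were chosen after the values were seen, so the log2 differences of -1.26, -0.82 and 0.44 (footpad minus flank) are descriptions without a test. The gap between the log2 fold changes of H2-K1 and H2-D1 was -1.23 and lay between -1.44 and -0.98 in the 14 alternative fits.

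Heavy-chain genes share sequence, and the way the counting treated reads that match several genes is not given in the sources used here. Of the 50-base windows of the H2-K1 transcript, 8.11% also occur in transcripts of other genes, and 6.52% occur in H2-D1. For H2-D1 the share was 14.3%. No such window was found for B2m, Psmb8, Psmb9, Psmb10 or Nlrc5, and the share was 0.647% for Tap1, 0.737% for Tap2 and 2.0% for Tapbp. These shares count exact matches of 50 bases and do not measure the error in the heavy chain values, which was not tested.

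**Figure D1:**
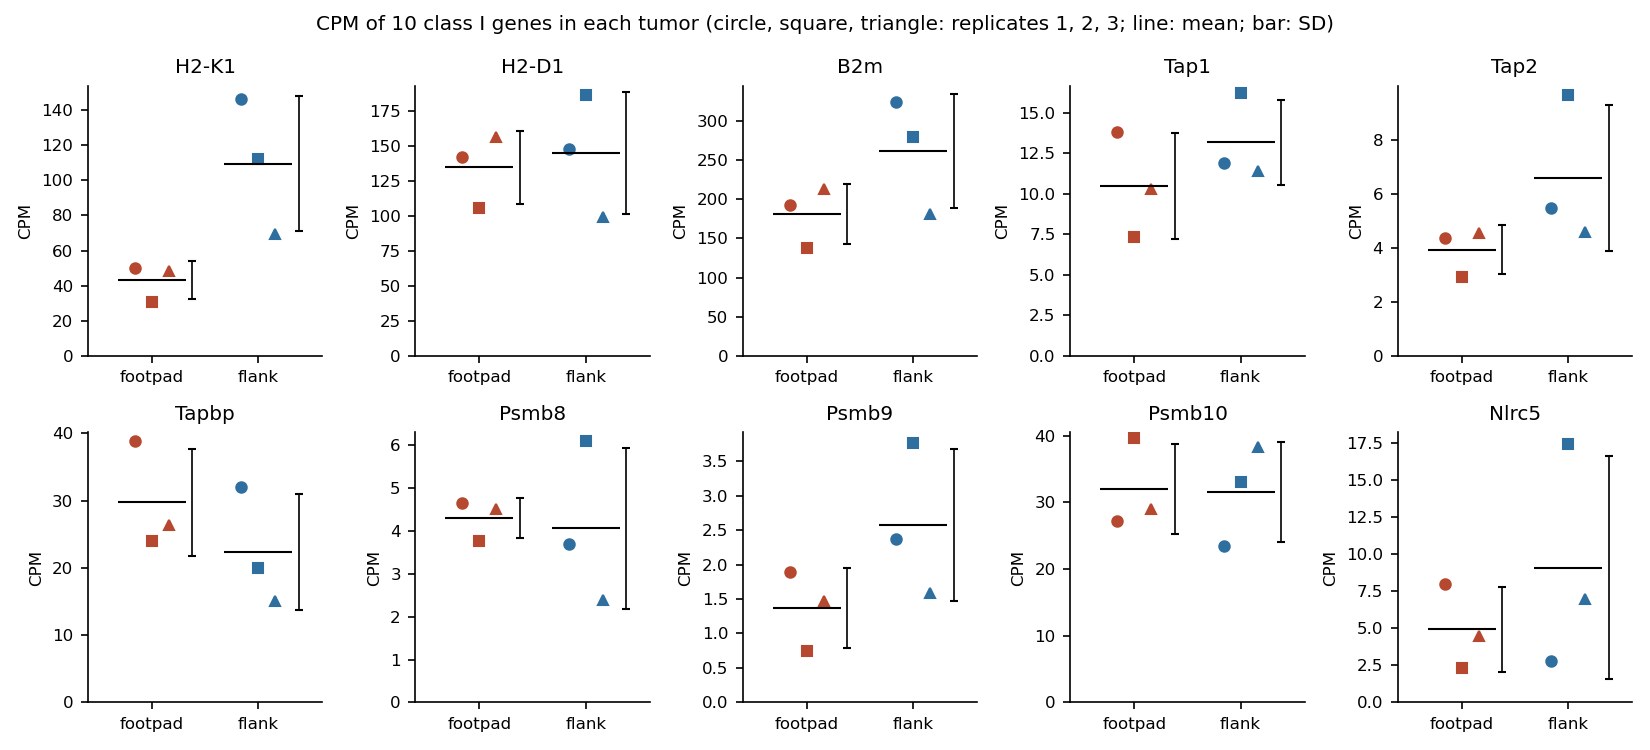
Level of each of the 10 class I genes in CPM (vertical axes, each from 0) in 3 footpad tumors (red) and 3 flank tumors (blue). Circles, squares and triangles are replicates 1, 2 and 3, horizontal lines are means and bars are SD. H2-K1 lies between 31.0 and 50.3 CPM in the footpad and between 69.6 and 146 CPM in the flank, while H2-D1 overlaps.

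The genes of peptide transport and loading gave no call. Tap1 (chr17:34187556-34197225), a subunit of the peptide pump, measured 13.8, 7.34 and 10.3 CPM in the footpad and 11.9, 16.2 and 11.4 CPM in the flank. The groups overlapped, and the log2 fold change was -0.33 (SE 0.27, edgeR adjusted p = 0.484). Tap2 (chr17:34204479-34216321), its partner in the pump, measured 4.36, 2.90 and 4.55 CPM in the footpad and 5.48, 9.65 and 4.6 CPM in the flank. Every footpad tumor was below every flank tumor, but footpad 3 and flank 3 were nearly equal and flank 2 stood far above the rest. Its log2 fold change was -0.74 (SE 0.35, edgeR adjusted p = 0.231), and -0.36 without flank 2. Tapbp (chr17:33919478-33929290), which encodes tapasin, the bridge between the pump and the heavy chain, measured 38.9, 24.1 and 26.3 CPM in the footpad and 32.0, 20.05 and 15.1 CPM in the flank. It leaned higher in the footpad with overlap between the groups (log2 fold change 0.41, SE 0.30, edgeR adjusted p = 0.432).

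The 3 immunoproteasome subunits replace the catalytic subunits of the standard proteasome when interferon is present and shift the peptides that are made. Psmb8 (chr17:34198195-34201454), which takes the place of Psmb5, measured 4.65, 3.78 and 4.51 CPM in the footpad and 3.69, 6.11 and 2.40 CPM in the flank. The footpad tumors lay inside the flank range (log2 fold change 0.08, SE 0.36, edgeR adjusted p = 0.908). Psmb9 (chr17:34182030-34187330), which takes the place of Psmb6, measured 1.89, 0.744 and 1.47 CPM in the footpad and 2.36, 3.76 and 1.58 CPM in the flank. Footpad 1 was above flank 3, so the groups overlapped, and the log2 fold change was -0.91 (SE 0.47, edgeR adjusted p = 0.268). Psmb10 (chr8:105935728-105938392), which takes the place of Psmb7, measured 27.3, 39.7 and 29.0 CPM in the footpad and 23.5, 33 and 38.3 CPM in the flank. Its means were 32.0 and 31.6 CPM, the log2 fold change was 0.02 (SE 0.22, edgeR adjusted p = 0.971), and it had the highest value of any tumor in footpad 2, where most other members were lowest.

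RNA of each immunoproteasome subunit was also set against that of the subunit it replaces, as a ratio of FPKM. Such a ratio of bulk RNA does not measure the exchange of protein subunits in the proteasome. The ratio of Psmb8 to Psmb5 was 0.0400, 0.0222 and 0.0340 in the footpad tumors and 0.0238, 0.0411 and 0.0129 in the flank tumors. The ratio of Psmb9 to Psmb6 was 0.0160, 0.00386 and 0.00938 in the footpad and 0.0142, 0.0232 and 0.00905 in the flank. The ratio of Psmb10 to Psmb7 was 0.134, 0.136 and 0.114 in the footpad and 0.0747, 0.132 and 0.114 in the flank. In all tumors RNA of the standard subunits far exceeded that of their replacements, and the groups overlapped for each pair. The log2 differences were 0.42, -0.79 and 0.29, with two-sided exact permutation p of 0.7, 0.5 and 0.3 and a Benjamini-Hochberg value of 0.7 for each of the 3 comparisons. With 3 tumors against 3 the smallest p this test allows is 0.1, so it could not have reached 0.05.

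**Figure D2:**
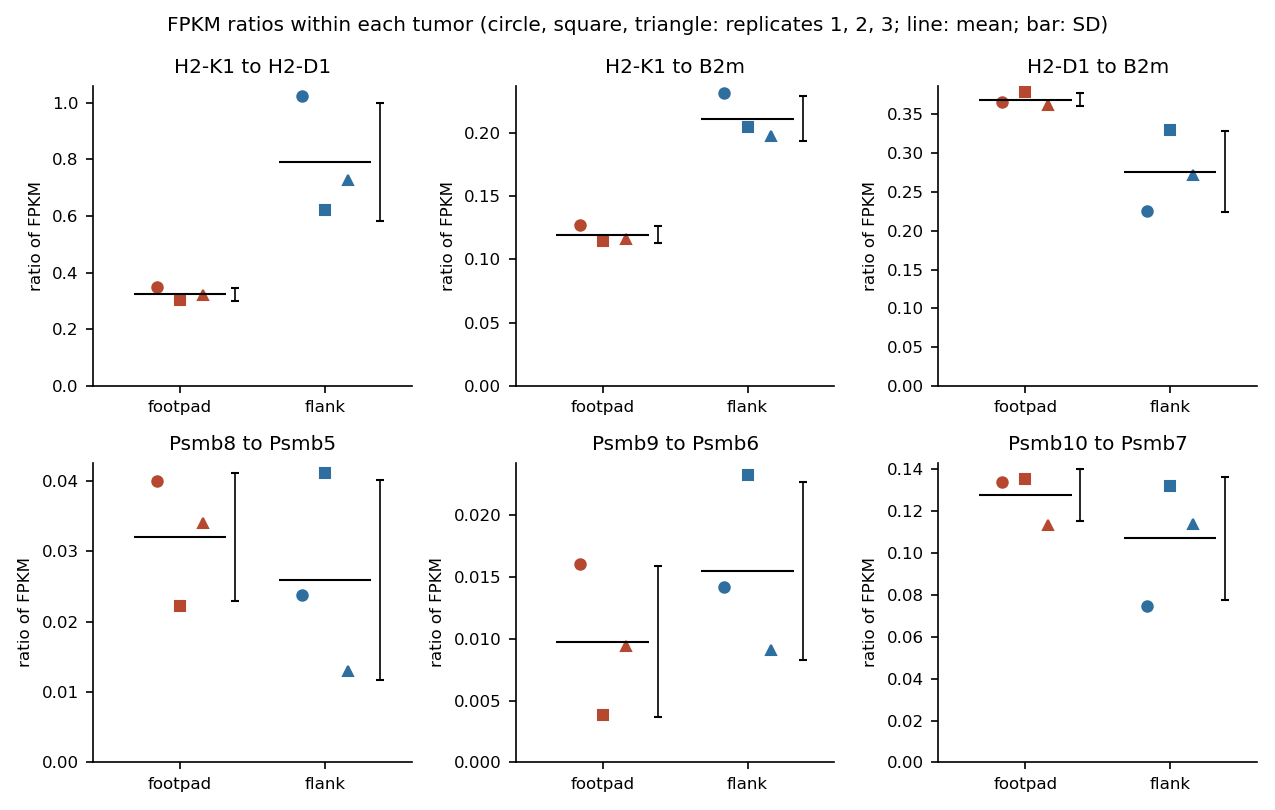
FPKM ratios within each tumor (vertical axes, each from 0) for pairs of surface components (top) and for each immunoproteasome subunit over the standard subunit it replaces (bottom), in footpad (red) and flank (blue) tumors. Circles, squares and triangles are replicates 1, 2 and 3, lines are means and bars are SD. H2-K1 to H2-D1 is between 0.303 and 0.348 in the footpad and between 0.619 and 1.02 in the flank, and the 3 lower panels overlap.

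Nlrc5 (chr8:94434335-94527272) encodes the activator that assembles on class I promoters. It was the most variable member, at 7.97, 2.33 and 4.47 CPM in the footpad and 2.81, 17.4 and 7.0 CPM in the flank. The groups overlapped, with flank 2 far above the other tumors, footpad 2 lowest and flank 1 next to it. The log2 fold change was -0.88 (SE 0.68, edgeR adjusted p = 0.448), and it was -0.0039 without flank 2. Flank 1 had the highest H2-K1 and B2m of the 6 tumors and the second lowest Nlrc5.

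Psmb9, Tap1, Psmb8 and Tap2 lie next to each other in this order on chromosome 17, within the MHC, and Psmb9 and Tap1 are transcribed away from each other. Their log2 fold changes along the chromosome were -0.91, -0.33, 0.08 and -0.74. None was called, and neighbours did not share a direction throughout.

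Over the whole set, 1 of 10 members was called lower, H2-K1, against 0.872% of all genes tested, and 0 of 10 were called higher, against 2.89%. By unadjusted p under 0.05, edgeR gave 1 of 10 members lower, against 10.5% of all genes tested, and 0 higher, against 14.8%, so these counts did not exceed the background. DESeq2 called the same 1 gene lower, against 2.05% of all genes, and 0 higher, against 6.71%. All 3 footpad tumors were below all 3 flank tumors for 2 of 10 members, H2-K1 and Tap2, a share near the 14.9% of all genes tested. All 3 footpad tumors were above the flank tumors for 0 of 10, against 17.5% of all genes. The log2 fold change was negative for 7 members and positive for 3, with a median of -0.43 against -0.0042 over all genes tested. Without flank 2 the median was -0.08, with 6 members negative.

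Tumors of the same site also differed from each other. Flank 2 had the highest level for 6 of the 10 members and footpad 2 the lowest for 6. Centred on each gene's mean over the 6 tumors, the members averaged 0.09, -0.58 and -0.10 on the log2 scale in footpad tumors 1, 2 and 3, and 0.14, 0.62 and -0.17 in flank tumors 1, 2 and 3. The upper and the lower end of this profile were thus replicates numbered 2 of different sites, and the other 4 tumors lay between -0.17 and 0.14. Tap1 was the member closest to the mean profile, with a root mean square distance of 0.121, and Nlrc5 was the farthest at 0.733. H2-K1, at 0.537, was among the members least like the mean.

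**Figure D3:**
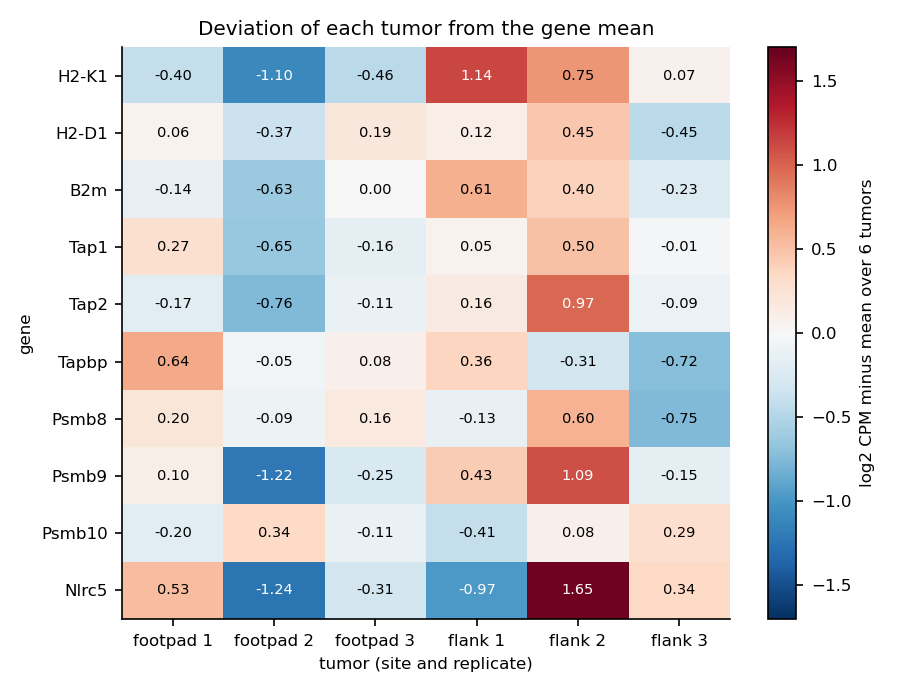
Deviation of each tumor (columns) from each gene's mean over 6 tumors (rows), in log2 CPM, with the value printed in each cell and red for above the mean. Flank 2 is mostly red and footpad 2 mostly blue, with averages of 0.62 and -0.58, and H2-K1 is negative in the 3 footpad tumors and positive in the 3 flank tumors.

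Compared per length, the order of the members was nearly the same at both sites. B2m was the most abundant, at 187 ± 37.7 FPKM in the footpad and 271 ± 72.3 FPKM in the flank (SD, n = 3), followed by H2-D1 at 68.8 ± 12.5 and 75.1 ± 27.1 FPKM. The ranks of H2-K1 and Psmb10 were exchanged: H2-K1 was at 22.3 ± 4.6 FPKM in the footpad, beside Psmb10 at 22.6 ± 6.07 FPKM, and at 57.7 ± 18.2 FPKM in the flank, above Psmb10 at 22.4 ± 6.32 FPKM. Tapbp came next at 9.50 FPKM in the footpad and 7.15 FPKM in the flank. Tap1, Psmb8, Psmb9, Tap2 and Nlrc5 followed in both groups, between 0.561 and 3.12 FPKM in the footpad and between 1.12 and 4.02 FPKM in the flank. Tap1 and Psmb8, and likewise Psmb9 and Tap2, differed by less than their SD at both sites.

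The genes whose profiles over the 6 tumors were most like the mean of the members were Ankle1, LOC115489981, Mex3b, N4bp2 and Cdk10, at root mean square distances between 0.107 and 0.127 on the log2 scale. They were found among all genes tested over 6 tumors, and the likeness is a description. None of the 5 was called, and their log2 fold changes lay between -0.44 and -0.21.

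Around the members stand 85 further genes of the pathway in 8 lists, of which 77 were tested. In these lists 0 genes were called higher, against 2.89% of all genes tested, and 1 lower, against 0.872%, the class II chaperone gene H2-DMb1. At an unadjusted p under 0.05 in edgeR there were 5 of 77 higher, against 14.8% of all genes tested, and 7 of 77 lower, against 10.5%. DESeq2 called 3 of 77 higher, H2-Q4, H2-Ab1 and H2-DMa, with adjusted p of 0.00908, 0.0478 and 0.0351, against 6.71% of all genes. The shares at an unadjusted p and the DESeq2 share were below the background. The 1 of 77 called lower in edgeR was not below it.

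Of 16 other class I heavy chain genes 11 were tested and 0 were called, 7 had a positive and 4 a negative log2 fold change, and the median was 0.24. H2-Q4, a Qa region heavy chain, measured 8.26, 3.73 and 6.92 CPM in the footpad and 2.16, 3.13 and 1.05 CPM in the flank. All footpad tumors were higher, the direction opposite to H2-K1, at a log2 fold change of 1.58 (SE 0.47, edgeR adjusted p = 0.0918). Windows shared with other genes made up 22% of the H2-Q4 transcript, against 8.11% for H2-K1, so its counts may be less certain. H2-T24, a non-classical heavy chain, had a log2 fold change of 1.07 (SE 0.69, edgeR adjusted p = 0.368) with overlapping groups.

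Peptide trimming and loading genes were tested in 5 of 5 cases, with 0 called, 1 positive and 4 negative and a median of -0.16. The chaperone gene Canx and the aminopeptidase gene Erap1, which trims peptides in the endoplasmic reticulum, had log2 fold changes of -0.32 each (edgeR adjusted p = 0.397 and 0.240). Of 7 standard proteasome subunits and activators 0 were called, with a median of -0.26. Psme2 and Psme1, the interferon-inducible proteasome activator, had log2 fold changes of -0.39 and -0.38 (edgeR adjusted p = 0.334 and 0.355).

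**Figure D4:**
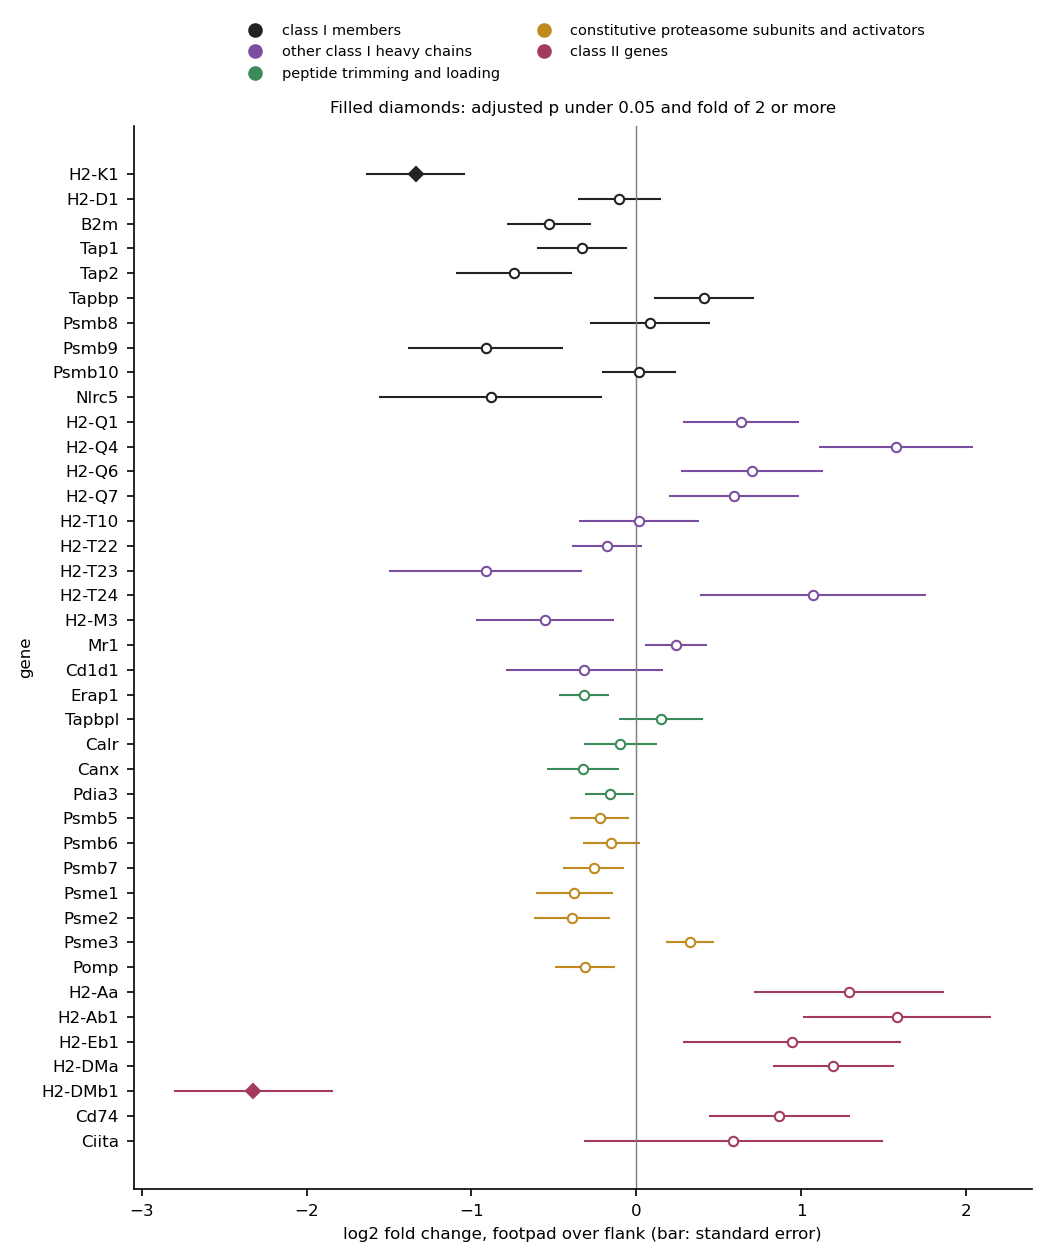
Log2 fold change of footpad over flank (horizontal axis, bars are SE) for the 10 members and the tested genes of 4 pathway lists (vertical axis, colors by list). Filled diamonds mark genes called, which are H2-K1 at -1.34 and H2-DMb1 at -2.32, and open circles mark genes that were not called.

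The 12 factors that bind class I promoters gave 0 calls, with 4 positive, 8 negative and a median of -0.11. Rela, a subunit of NF-kappaB, measured 36.4, 23.4 and 29.2 CPM in the footpad and 18.1, 20.01 and 19.7 CPM in the flank. Its level was higher in every footpad tumor, at a log2 fold change of 0.62 (SE 0.18, edgeR adjusted p = 0.0903). Creb1, which binds the TGACG element, measured 70.6, 76.8 and 79.9 CPM in the footpad and 94.8, 98.9 and 108 CPM in the flank. It was lower in every footpad tumor, at a log2 fold change of -0.41 (SE 0.12, edgeR adjusted p = 0.0945). DESeq2 gave adjusted p of 0.0279 for Rela and 0.0223 for Creb1, with fold changes under 2.

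Interferon ligands, receptors and signalling genes were tested in 12 of 14 cases and 0 were called, with a median of 0.05. No read of Ifng, the gene of interferon-gamma, was counted in any of the 6 tumors, which allows levels of up to 0.0438 to 0.0673 CPM by counting error alone, and Ifnb1 had 2 counts in footpad 3 and none elsewhere. Socs1, a feedback inhibitor of the pathway, was low, between 0.274 and 1.17 CPM, and higher in every footpad tumor (log2 fold change 0.95, SE 0.49, edgeR adjusted p = 0.270).

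Among 12 interferon-gamma response genes 11 were tested and 0 were called, and the median was -0.09. Cd274, which encodes the checkpoint ligand PD-L1, had a log2 fold change of 0.95 (SE 0.39, edgeR adjusted p = 0.181), and the guanylate-binding protein gene Gbp5 had 0.83 (SE 0.60, edgeR adjusted p = 0.420). Of 12 type I interferon response genes, all tested, 0 were called and the median was -0.23. Ifit3 and Ifit1, antiviral effectors, had log2 fold changes of -1.03 and -0.72 (edgeR adjusted p = 0.190 and 0.394). The summed level of the interferon-gamma list was 164, 92.7 and 160 CPM in the footpad and 164, 172 and 128 CPM in the flank, with footpad 2 lowest. The summed level of the type I list was 657, 285 and 493 CPM in the footpad and 787, 341 and 284 CPM in the flank, with overlap.

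Class II genes, which serve presentation of ingested proteins in specialised cells, mostly leaned higher in the footpad at levels of at most 10.2 CPM. Of 7 tested, 0 were called higher, 6 had a positive log2 fold change and the median was 0.94. Every footpad tumor was higher for 3 of the 7, against 17.5% of all genes tested. H2-Ab1, a class II chain, measured 3.41, 3.15 and 2.33 CPM in the footpad and 0.328, 1.76 and 0.879 CPM in the flank (log2 fold change 1.58, SE 0.57, edgeR adjusted p = 0.141). H2-DMb1 (chr17:34153191-34160229), a subunit of the chaperone that loads class II molecules, went the opposite way. It measured 1.08, 1.31 and 1.29 CPM in the footpad and 5.50, 10.2 and 2.75 CPM in the flank, without overlap (log2 fold change -2.32, SE 0.48, edgeR adjusted p = 0.0403). Its dimer partner H2-DMa was higher in every footpad tumor (log2 fold change 1.20, SE 0.37, edgeR adjusted p = 0.10). Of the H2-DMb1 windows 27.2% also occur in other transcripts, chiefly H2-DMb2, whose log2 fold change was 0.24 (SE 0.50, edgeR adjusted p = 0.801). The call of H2-DMb1 was lost when any 1 of the 6 tumors was left out: adjusted p was 0.149, 0.0612 and 0.142 without footpad tumors 1, 2 and 3, and 0.0722, 0.0704 and 0.0577 without flank tumors 1, 2 and 3.

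Other cells express class I as well, and their markers differed between the sites. For comparison, 2.89% of all genes tested were called higher in edgeR, and 17.5% were higher in every footpad tumor. Fibroblast markers, of which 5 of 6 were called higher, summed to 2103, 2167 and 2893 CPM in the footpad and 70.3, 320 and 93.3 CPM in the flank. Endothelial markers, of which 2 of 5 were called higher, summed to 163, 107 and 171 CPM in the footpad and 57.5, 77.0 and 68.4 CPM in the flank. Macrophage markers, of which 1 of 8 was called higher, Cd68, summed to 143, 127 and 137 CPM in the footpad and 24.7, 105 and 59.9 CPM in the flank. These 3 sums were higher in every footpad tumor, the direction opposite to H2-K1. Of the 8 macrophage markers, 4 were higher in every footpad tumor and the rest overlapped between the groups. The macrophage sum leaned on Cd14, at 49.6 CPM in footpad 1 and 4.88 CPM in flank 2, and overlapped without it. The melanoma markers leaned the way of H2-K1 in sign: 6 of 7 had a negative log2 fold change, with a median of -0.23, and 0 were called. Their sum was highest in flank 1, as H2-K1 was. Footpad 2, the tumor lowest in H2-K1, had the next highest sum, at 17943 CPM, and the groups overlapped. The largest difference among the melanoma markers was that of Tyr, the tyrosinase gene of pigment synthesis, at a log2 fold change of -1.14 (SE 0.49, edgeR adjusted p = 0.198). The part of these markers in the result was not tested.

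Lymphocyte markers were close to absent. The 8 natural killer cell markers were not tested and summed to at most 0.907 CPM, and the 6 T cell markers summed to at most 0.16 CPM, with between 4 and 6 of them at 0 in each tumor. The 4 B cell markers summed to between 0.176 and 0.793 CPM. Ptprc, which marks all leukocytes, measured 36.6, 7.15 and 24 CPM in the footpad and 1.97, 9.87 and 3.82 CPM in the flank, with footpad 2 inside the flank range (log2 fold change 2.11, SE 0.72, edgeR adjusted p = 0.124). Neutrophil markers summed to 303, 6.24 and 149 CPM in the footpad and 17.9, 27.0 and 4.17 CPM in the flank, with overlap. Among these 5 markers 4 were tested and 0 called, and the lowest edgeR adjusted p was 0.119. Footpad 2, which had the lowest average of the class I members, was low in neutrophil RNA. The flank tumors were low as well, including flank 2, which had the highest class I average. Of 6 dendritic cell markers 4 were tested and 0 called. Their sum rested on Zbtb46, at between 8.90 and 11.6 CPM, while Flt3 reached at most 0.471 CPM, Itgax ran from 0 to 2.27 CPM, and Xcr1 and Clec9a were at 0 in most tumors or close to it. The part of these cells in the levels of the members was not tested.

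**Figure D5:**
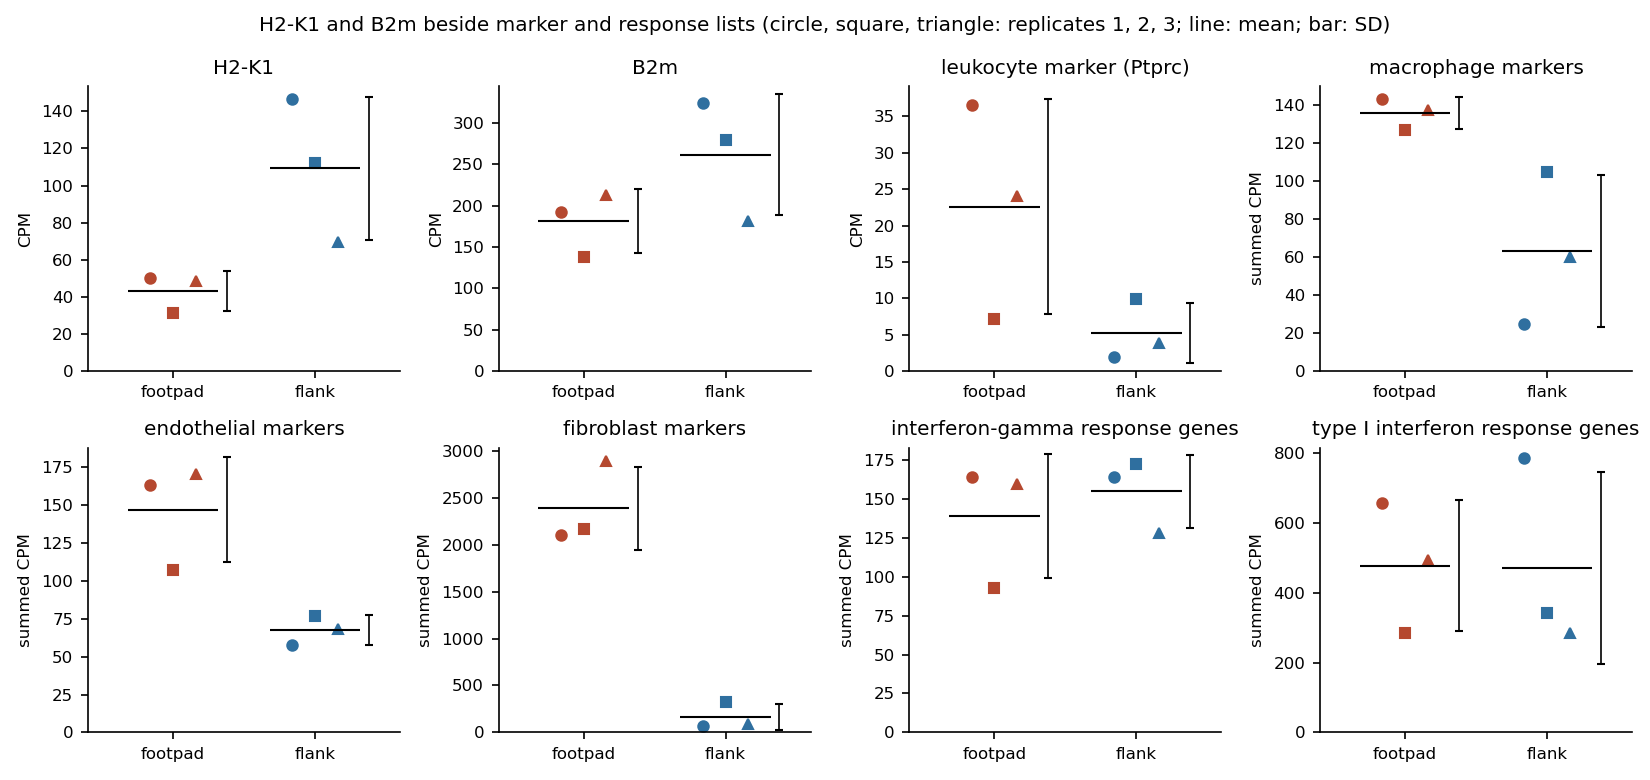
Levels of H2-K1, B2m and the leukocyte marker Ptprc in CPM, and summed CPM of macrophage, endothelial and fibroblast markers and of interferon response lists (vertical axes, each from 0), in footpad (red) and flank (blue) tumors. Circles, squares and triangles are replicates 1, 2 and 3, lines are means and bars are SD. H2-K1 is lower in every footpad tumor while the macrophage, endothelial and fibroblast sums are higher in every footpad tumor. The macrophage sums overlap without Cd14, and the interferon sums overlap.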

How the data were processed

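RNA of 6 B16F10 tumors was analysed, grouped by site from the sample titles. Per the submitters' notes the reads were checked with FastQC 0.11.7, trimmed with Trimmomatic and aligned with HISAT2 2.1.0 to mm10. The deposited values are unnormalized whole read counts per RefSeq gene, and FPKM, for which the authors divided by transcript length and depth. The counting program is not given in the sources used here. Columns of per-sample values left unused numbered 0.

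Counts were fitted in R 4.3.3 with edgeR 4.0.16 (TMM, filterByExpr, glmQLFit, glmQLFTest, Benjamini-Hochberg over 17210 genes), and the fits were tested on simulated data. The SE was approximated as the size of the change over the root of its F. The common biological coefficient of variation was 0.338. Counting error was small beside it: the members had 51 counts or more in every tumor. Ratios of FPKM were compared by exact permutation tests of log2 values in scipy 1.17.1. DESeq2 1.42.0, limma 3.58.1 on log2(FPKM + 1) and log2(FPKM + 0.1), other scalings and filters, a replicate block and leaving out each tumor were the alternatives. The difference between H2-K1 and H2-D1, and H2-DMb1, were followed through them after the data were seen.

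The named genes are the members, pathway genes called, the 2 largest absolute log2 fold changes of each list, and the 5 genes with the nearest profile, of which 1 pathway gene is not reported here. H2-DMa, H2-DMb2, Cd68 and Cd14 were added after their values were seen, as were genes named only under the other observations. The members and lists were chosen with earlier results of these data known. Positions are from RefSeq on GRCm38, the assembly that mm10 names. Shared windows of 50 bases were searched in the GENCODE transcripts.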

Additional observations from a re-analysis of the deposited data

How the results depend on the processing

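H2-K1 stayed negative in the 14 alternatives, and its call held in 5 of them. Members called lower fell from 1 to 0 with upper-quartile scaling, with DESeq2 size factors in edgeR (H2-K1 adjusted p = 0.0505) and without each tumor in turn (0 to 0). Pathway genes called higher went from 0 to 3 in DESeq2. Pathway genes called lower went from 1 to 0 with limma on log2(FPKM + 1) and without each tumor (0 to 0). Among all genes, 497 were called higher and 150 lower in edgeR, 1154 and 352 in DESeq2, 271 and 95 with limma on log2(FPKM + 1), 590 and 248 with any fold, and between 0 and 639 and between 0 and 197 without 1 tumor. The fits that left out a tumor had 2 tumors at 1 site, and the cause of these changes was not tested. Replicate numbers gave no sign of pairing the tumors: deviations of same-numbered tumors correlated at 0.05, -0.10 and -0.11, and no footpad tumor correlated best with its own number. With the replicate block 0 members and 0 pathway genes were called, and among all genes 0 were higher and 0 lower, with an H2-K1 log2 fold change of -1.31 (edgeR adjusted p = 0.109). No member other than H2-K1 was called in any alternative. Without 1 tumor, H2-D1 lay between -0.32 and 0.12, Psmb8 between -0.19 and 0.50, and Psmb10 between -0.17 and 0.17. H2-D1 turned to 0.04 without footpad 2 and 0.12 without flank 2, Psmb8 to -0.19 without flank 3, and Psmb10 to -0.17 without footpad 2 and -0.16 without flank 1. The log2 ratio difference of Psmb8 to Psmb5 lay between -0.0057 and 0.83 without 1 tumor and turned to -0.0057 without flank 3. That of Psmb9 to Psmb6 lay between -1.26 (without footpad 1) and -0.23 (without footpad 2), and that of Psmb10 to Psmb7 between 0.05 (without flank 1) and 0.46 (without flank 2). The signs of the other 6 members held.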

Other observations

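Several interferon-inducible genes outside the members stood highest in flank 1, a pattern chosen after the values were seen and given without a test. The non-classical heavy chain gene H2-T23, which encodes the molecule that presents leader peptides of other class I chains, was at 41.9 CPM there and otherwise between 7.73 and 13.7 CPM. The proteasome activator genes Psme1 and Psme2 were at 69.8 and 65.6 CPM and otherwise at no more than 41.8 and 40.7 CPM. Ifit3 and Ifit1 were at 72.6 and 55.0 CPM, and no higher than 28.7 and 25.2 CPM elsewhere. Other genes of the 2 interferon response lists peaked in other tumors. Rsad2, Irf7, Gbp2, Gbp4, Gbp5 and Cd274 were highest in footpad 1, Mx1 in footpad 3, and Cxcl10, Irgm1 and Iigp1 in flank 2. The remaining tested genes of these lists were highest in flank 1. B2m and H2-K1 were also highest in flank 1, with 324 and 146 CPM, but H2-D1, Psmb8, Psmb9 and Nlrc5 were highest in flank 2. Without flank 1 the log2 fold change of H2-K1 was -1.08.

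Ifit2, an antiviral effector gene, had the lowest adjusted p of the 2 interferon response lists. It measured 55.5, 51.7 and 58.7 CPM in the footpad and 83.8, 72.6 and 75.5 CPM in the flank, lower in every footpad tumor. Its log2 fold change was -0.48 (SE 0.12, edgeR adjusted p = 0.0649). DESeq2 gave it an adjusted p of 0.00756, with a fold change under 2.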
